A study of Homo sapiens with 11 samples.

Results

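The calprotectin genes S100A8 and S100A9 and 5 related genes, S100A12, S100A4, S100A6, S100A10 and S100A11, were followed over 11 expression arrays of MV4-11, an established human acute myeloid leukaemia cell line. With earlier results of these data known, the 7 genes were chosen by symbol. They came out of 22109 genes that had a transcript cluster (probes of one transcribed locus that are summarised together) annotated with a single gene symbol. Each of the 7 was read by exactly 1 such cluster. All values are log2 levels as deposited, so a difference of 1 is a 2-fold change, and levels of different genes are not compared because each cluster has its own probes. Genes entered the tests when their highest value over the 11 arrays reached 3.80, the median over all single-symbol clusters. S100A12 stayed below this filter and was tested only when the filter was dropped, which left 6 of the 7 genes among the 12147 tested.

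Cells of the knockdown experiment were transduced with shRNA and then kept with 3 µM doxycycline for 24 hours. The 8 conditions were a luciferase shRNA (shLuc), shRNAs against RUNX1 (shRx1), RUNX2 (shRx2) or RUNX3 (shRx3), the 3 pairs of these and all 3 together. In the compound experiment, cells were kept for 6 hours with DMSO or with 1 µM of Chb-M' or Chb-50, which the series calls alkylating PIP conjugates. Each condition had 1 array from 1 cell line, and nothing in the labels says whether transductions were separate, so the spread used here is that between arrays of different conditions and may be technical. RUNX genes encode transcription factors, and the series asked how expression changes when they are knocked down or when cells meet the compounds.

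S100 proteins are small calcium-binding proteins of the EF-hand type that mostly work as dimers. S100A8 and S100A9 pair to form calprotectin, an abundant cytosolic protein of neutrophils and monocytes that binds calcium, zinc and manganese and, once released, acts on receptors such as TLR4 and RAGE (the product of AGER). S100A12 is a further S100 protein of granulocytes, S100A4 binds non-muscle myosin, S100A6 binds CACYBP, and S100A10 and S100A11 bind annexins. In myeloid differentiation S100A8 and S100A9 are low in immature cells and high in mature ones.

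The labels were checked first. RUNX2 averaged 5.70 ± 0.107 (SD, n = 4) on arrays with its shRNA and 6.14 ± 0.123 (SD, n = 4) on those without, with no overlap. RUNX3 averaged 7.74 ± 0.105 (SD, n = 4) where its shRNA was present and 8.11 ± 0.291 (SD, n = 4) where it was absent. The arrays carrying the RUNX3 shRNA spanned 7.65 to 7.87, and the array labelled shRx1, which should lack it, fell among them at 7.70. RUNX1 is listed only on a cluster shared with another locus and is not analysed here. The level filter was passed by 12147 of all 22109 genes, a share to set beside each count that follows. Of the leukaemia line's markers 5 of 5 analysed passed the level filter on these arrays, among them FLT3 (9.33 to 9.87) and the myeloid factor SPI1 (8.50 to 8.67). Of monocyte genes 9 of 14 analysed passed, among them LYZ (11.0 to 11.6) and CD68 (9.29 to 10.3). The receptor CD14 (2.21 to 2.56) stayed below the filter, as did FCGR3A, VCAN, CD163 and LILRB2. Of T and NK cell genes 2 of 7 analysed passed, and the T cell receptor component CD3E (2.09 to 2.51) stayed below. Among mature neutrophil genes 3 of 13 analysed passed, and lactoferrin, LTF, stayed below the filter at 1.84 to 2.25.

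S100A8 and S100A9 lie on the long arm of chromosome 1 with the other 5 genes, and S100A12 lies between them in the RefSeq gene order. The 250 bases before their transcription starts are shown, 5′ to 3′ on the gene's strand, because both genes had their lower readings on the arrays with the RUNX3 shRNA, and RUNX factors bind short DNA letters that can be looked for there. Sequences are from RefSeq (GRCh38.p14), at chr1:153391074-153391323 on the minus strand for S100A8, which has 3 listed starts, and at chr1:153357604-153357853 on the plus strand for S100A9. Capitals mark the TATA box letters TATAAA on the gene's strand. They also mark the RUNX core letters TGTGGT or their variant TGCGGT on either strand, which appear as ACCACA and as ACCGCA where they lie on the opposite one.
S100A8: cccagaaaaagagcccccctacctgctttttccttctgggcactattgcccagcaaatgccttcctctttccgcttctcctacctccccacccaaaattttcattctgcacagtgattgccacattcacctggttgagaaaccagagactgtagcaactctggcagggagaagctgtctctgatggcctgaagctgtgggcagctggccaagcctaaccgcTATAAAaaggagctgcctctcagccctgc
S100A9: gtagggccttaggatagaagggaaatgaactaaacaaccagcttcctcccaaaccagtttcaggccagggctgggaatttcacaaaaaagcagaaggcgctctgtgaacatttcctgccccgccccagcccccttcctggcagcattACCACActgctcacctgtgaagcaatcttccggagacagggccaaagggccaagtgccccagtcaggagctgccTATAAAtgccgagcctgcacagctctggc

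Both windows shown have TATAAA with its first base at position -29 from the start, letters held by 6.8% of 35116 promoter windows of this length. Of the other 2 listed S100A8 starts, one window has it at -126 and one lacks it, and S100A4 has it at -31 and S100A12 at -8. The S100A9 window holds TGTGGT on the opposite strand at position -103, and none of the 3 S100A8 windows holds either RUNX form. TGTGGT occurs in 11.0% of all windows, TGCGGT in 5.84% and either in 16.3%. A match is a string of letters and not a binding site, and a window without one says nothing about RUNX binding elsewhere. Besides S100A9, S100A11 has TGTGGT at position -117 on its own strand and S100A4 has TGCGGT at -105 on the opposite strand, shown in 30-base stretches with those letters in capitals.
S100A11: aaagctcagttcTGTGGTtagcgccggccg
S100A4: gctgtggcacttACCGCAtcagcccacagc

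The letters TTGCNNAA, bound by C/EBP factors, which are myeloid regulators, were searched on both strands. They occur in the S100A12 window at -94 and the S100A11 window at -33, and in 9.05% of all windows.

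S100A8 read 5.80 on shLuc, 5.90 on shRx1, 6.37 on shRx2 and 6.32 on shRx1+shRx2. With the RUNX3 shRNA it read 5.61 on shRx3, 5.66 on shRx1+shRx3, 5.73 on shRx2+shRx3 and 5.67 on shRx1+shRx2+shRx3. All 4 arrays with the RUNX3 shRNA lay below all 4 without it, and they lay close together, whereas the arrays without it split into a lower pair and a higher pair that carried the RUNX2 shRNA. The mean was 5.67 ± 0.0508 (SD, n = 4) where the RUNX3 shRNA was present and 6.10 ± 0.288 (SD, n = 4) where it was absent, so the former level was 74.2% of the latter.

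S100A9 read 5.24 on shLuc, 5.52 on shRx1, 5.53 on shRx2 and 5.59 on shRx1+shRx2. With the RUNX3 shRNA it read 5.06 on shRx3, 4.69 on shRx1+shRx3, 5.15 on shRx2+shRx3 and 4.86 on shRx1+shRx2+shRx3. Here too the groups did not overlap, and the lowest arrays were those in which the RUNX1 and RUNX3 shRNAs were combined. The mean was 4.94 ± 0.208 (SD, n = 4) where the shRNA was present and 5.47 ± 0.154 (SD, n = 4) where it was absent, or 69.2% of the level. In these bulk samples fewer cells expressing a gene and less RNA per cell cannot be told apart.

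**Figure D1:**
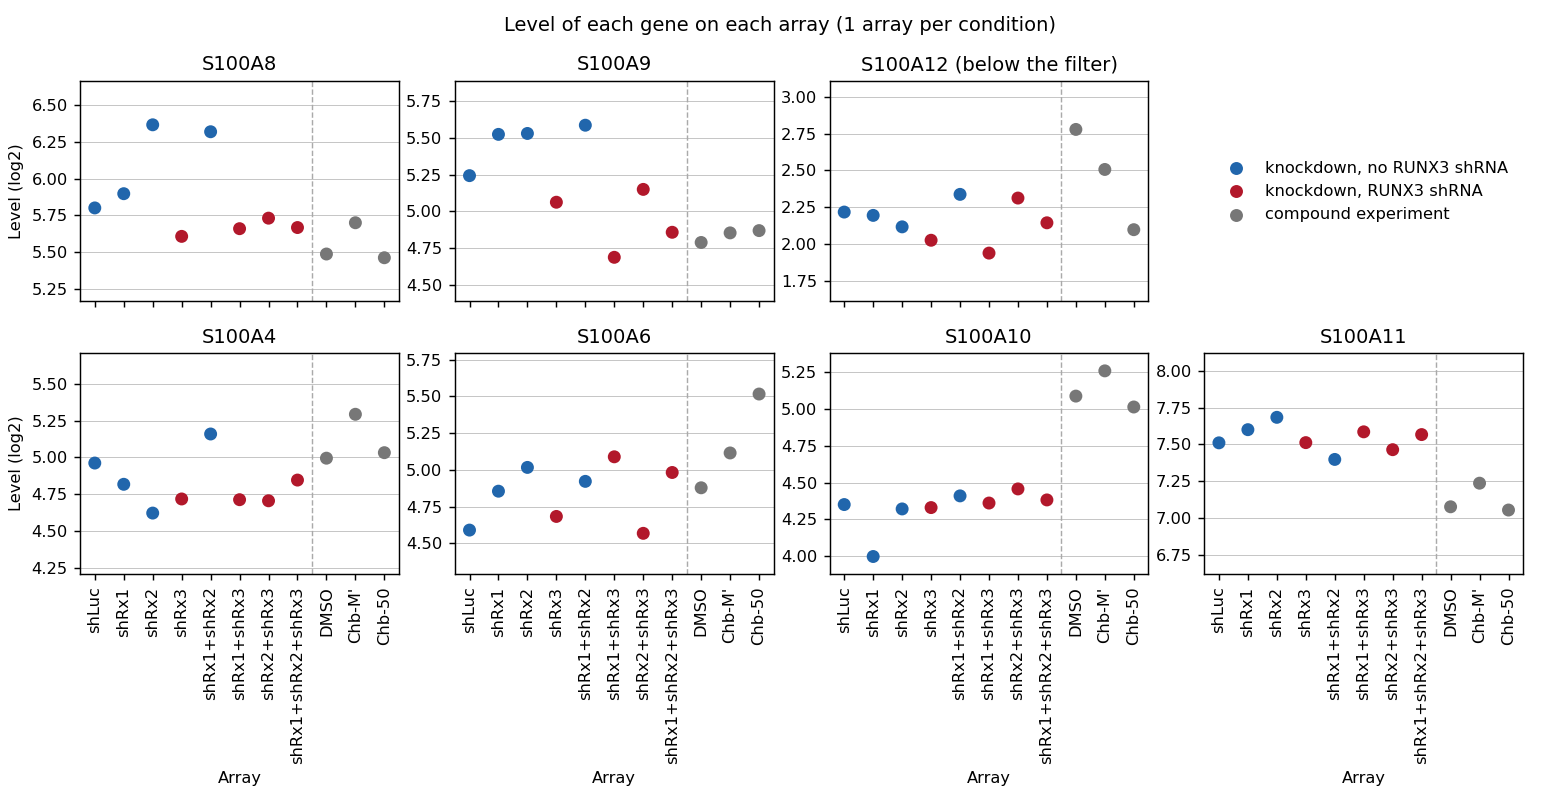
Each panel plots one gene's log2 level (y axis, every panel spanning the same range of 1.5) on each of the 11 arrays (x axis), 1 point per array with no error bar, blue for knockdown arrays without and red for those with the RUNX3 shRNA and grey for the compound experiment. In S100A8 and S100A9 the 4 red points lie below the 4 blue ones, and in S100A10 the grey points (5.02 to 5.26) lie above all others.

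In the order of S100A8 levels over the 11 arrays, 1 of the 10 gaps between neighbours exceeded the gene's residual SD of 0.159, that of 0.42 between shRx1+shRx2 and shRx1. For S100A9 there were 2 such gaps over its residual SD of 0.188, from shRx1 down to shLuc and from shRx3 down to Chb-50. All other neighbours in either order differed by less than that spread.

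In the additive limma fit, which estimates each shRNA's difference from all 8 knockdown arrays, the RUNX3 shRNA estimate was -0.43 for S100A8 (SE 0.0972, 95% interval -0.66 to -0.20). It was -0.53 for S100A9 (SE 0.111, 95% interval -0.79 to -0.27). Neither passed the limma test after Benjamini-Hochberg adjustment over all 12147 genes, with adjusted p = 0.336 for S100A8 and adjusted p = 0.334 for S100A9. Limma called 0 genes (0%) for the RUNX3 shRNA, and 4.82% of all genes were lower at an unadjusted p under 0.05, a share to set beside 2 of the 6 genes tested here. Of all genes 1.58% had all 4 arrays with the RUNX3 shRNA below all 4 without it, again beside 2 of 6. These 6 genes were chosen with earlier results of these data known, and S100A8 and S100A9 levels ran together. The 2 counts are therefore not independent support. The RUNX3 level of the array labelled shRx1 fell among those of the arrays with the RUNX3 shRNA. Without that array the estimates were -0.46 for S100A8 and -0.45 for S100A9 (limma adjusted p = 0.402 for each).

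The matched pairs, arrays whose labels differ in 1 shRNA only, show how evenly the differences were spread. The S100A8 reading with the RUNX3 shRNA added differed by -0.19 from shLuc, -0.24 from shRx1, -0.64 from shRx2 and -0.65 from shRx1+shRx2. The S100A9 reading differed by -0.18, -0.84, -0.38 and -0.73 in the same order. All 8 differences were negative, as they had to be once the groups did not overlap. Both genes were read on the same arrays, so these are not 8 separate observations. The smallest difference of each gene was the one that started from shLuc. For S100A8 the large differences were those from arrays that carried the RUNX2 shRNA, and for S100A9 those from arrays that carried the RUNX1 shRNA. RUNX3 itself differed in these pairs by -0.39 from shLuc, -0.05 from shRx1, -0.36 from shRx2 and -0.71 from shRx1+shRx2. The largest S100A9 difference, -0.84, lay in the pair with the smallest RUNX3 difference. That pair starts from shRx1, whose RUNX3 level fell among those of the arrays with the RUNX3 shRNA. The next S100A9 difference, -0.73, and the largest S100A8 difference, -0.65, lay in the pair with the largest RUNX3 difference, -0.71. How the RUNX3 differences relate to those of S100A8 and S100A9 was not tested.

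**Figure D2:**
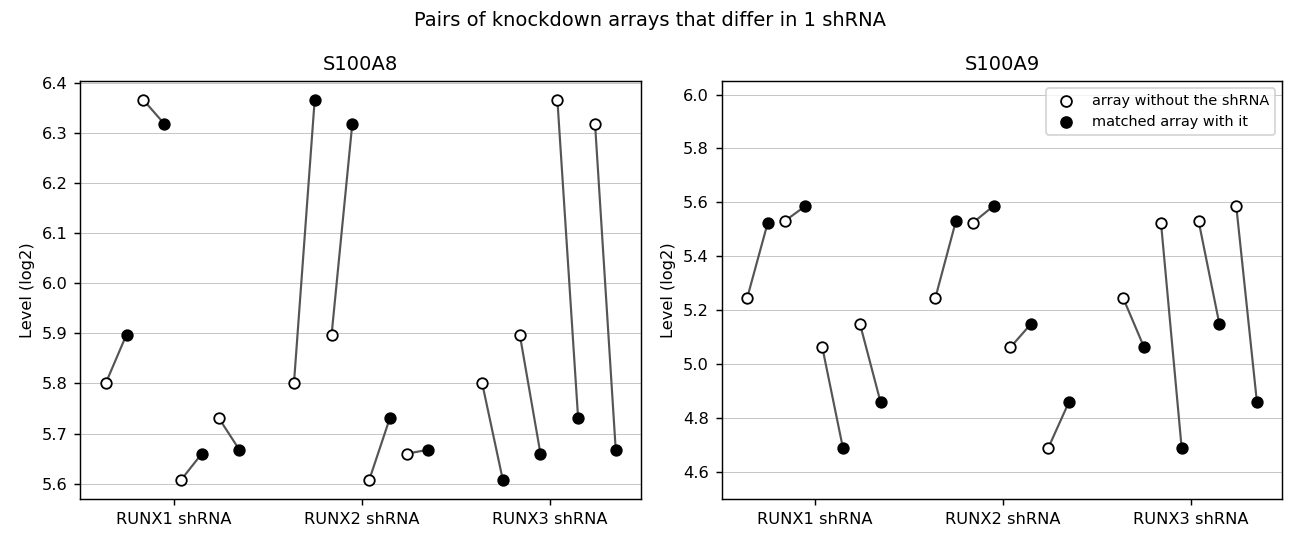
Log2 levels (y axis) of S100A8 (left) and S100A9 (right) in the 12 pairs of knockdown arrays that differ in a single shRNA, named on the x axis, with an open circle for the array without it, a filled circle for the array with it and a line joining the pair. All lines of the RUNX3 shRNA go down, by 0.18 to 0.84 across both genes, which follows from the groups with and without it not overlapping.

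The RUNX2 shRNA went with higher S100A8 readings where no RUNX3 shRNA was present. The S100A8 difference was 0.57 between shRx2 and shLuc and 0.42 between shRx1+shRx2 and shRx1, against 0.12 and 0.01 in the pairs that carried the RUNX3 shRNA. The additive estimate was 0.28 (SE 0.0972, 95% interval 0.05 to 0.51, limma adjusted p = 0.965). Limma called 0 of all genes (0%) for the RUNX2 shRNA, and 3.05% were higher at an unadjusted p under 0.05, beside 1 of 6 here. S100A9 had an estimate of 0.15 (95% interval -0.11 to 0.41), or 0.06 without shLuc and 0.24 without shRx1. The difference between the effects of the RUNX3 shRNA with and without the RUNX2 shRNA was tested as an interaction and was -0.43 for S100A8 (SE 0.129, limma adjusted p = 0.790), a fit in which 6.22% of genes had an unadjusted p under 0.05 and 0 were called.

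The RUNX1 shRNA had no single direction on either gene. The S100A9 differences were 0.28 and 0.06 without the RUNX3 shRNA (shRx1 minus shLuc, shRx1+shRx2 minus shRx2) and -0.37 and -0.29 with it. The interaction of the RUNX1 and RUNX3 shRNAs on S100A9 was -0.50 (SE 0.147, limma adjusted p = 0.371), where 11.5% of genes had an unadjusted p under 0.05 and 0 were called. The additive RUNX1 shRNA estimate was -0.08 for S100A9 (95% interval -0.34 to 0.18) and 0.01 for S100A8 (95% interval -0.22 to 0.24), the latter turning to -0.01 when arrays were centred on their medians. Limma called 0 genes (0%) for the RUNX1 shRNA, and 11.2% were higher at an unadjusted p under 0.05, beside 0 of 6 here.

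**Figure D3:**
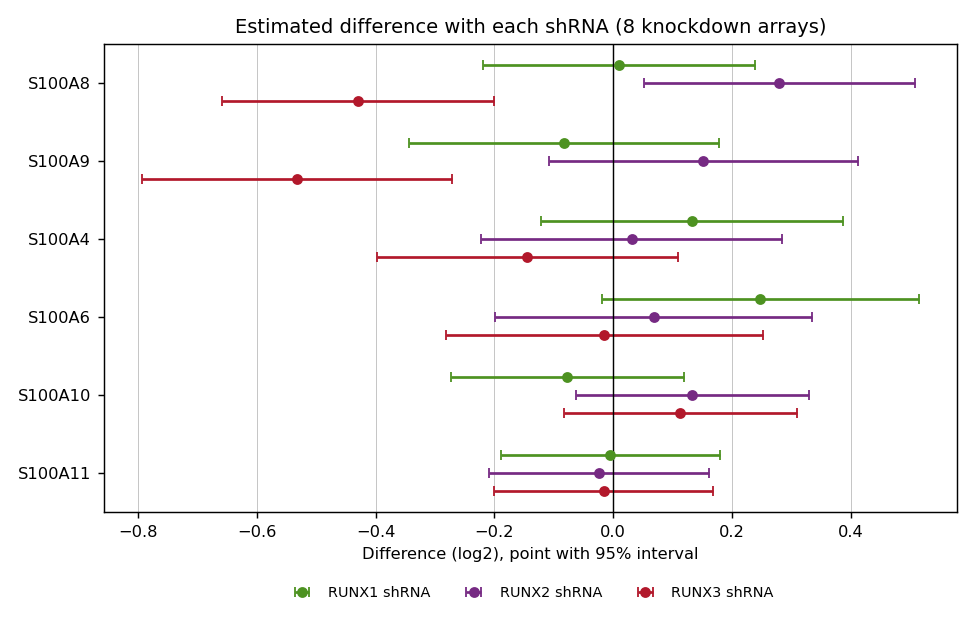
Additive limma estimates of the log2 difference with each shRNA (x axis, points with bars for the 95% interval) for the 6 genes tested (y axis), from the 8 knockdown arrays. The RUNX3 shRNA intervals of S100A8 (-0.66 to -0.20) and S100A9 (-0.79 to -0.27) and the RUNX2 shRNA interval of S100A8 (0.05 to 0.51) lie off 0, before adjustment over all genes.

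Over the 8 knockdown arrays S100A8 and S100A9 levels ran together, with Pearson's r = 0.813 (exact permutation p = 0.0124, two-sided) and Spearman's rho = 0.905 (exact permutation p = 0.00456). This was 1 relation, and the pair was chosen knowing that both genes were low with the RUNX3 shRNA, so the p-values are not independent support. The permutations also treated the arrays as exchangeable, although these share shRNAs. Both genes were split without overlap by the RUNX3 shRNA, and the correlation includes that split. Without shRx2 and shRx1+shRx2, the arrays farthest from the S100A8 median, r was 0.828 (exact permutation p = 0.0458, n = 6) and rho 0.829 (exact permutation p = 0.0583). Neither of the arrays left out carried the RUNX3 shRNA, so the split remained among the 6. Within the 3 compound arrays, too few for a correlation, S100A8 spanned 5.46 to 5.70 and S100A9 4.79 to 4.87.

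**Figure D4:**
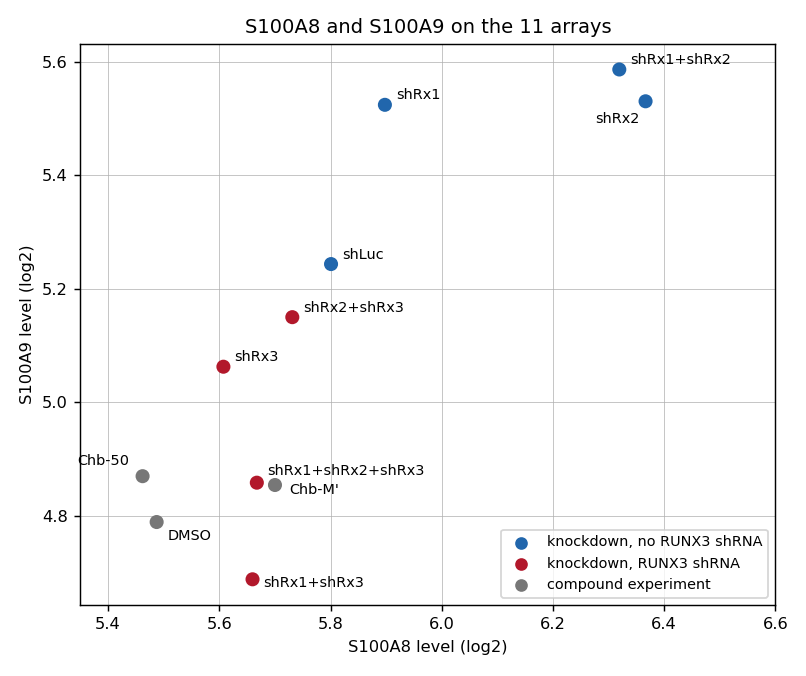
S100A8 level (x axis, log2) against S100A9 level (y axis, log2) on the 11 arrays, 1 labelled point each, blue for knockdown arrays without and red for those with the RUNX3 shRNA and grey for the compound experiment. The RUNX3 shRNA arrays lie at the lower left of the knockdown arrays, and shRx2 and shRx1+shRx2 at the upper right.

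The genes whose levels ran most like these were found by Pearson's r, as a description over arrays that share shRNAs or an experiment. Among 9374 genes S100A9 ranked 4 in likeness to S100A8 over the 11 arrays (r = 0.850), after the interleukin-4 receptor chain IL4R (0.894), the nucleoside transporter SLC29A2 (0.874) and the cytidine deaminase CDA (0.872). S100A8 ranked 6 in likeness to S100A9, for which the highest were SLC35A4 (0.933), DNAJC10 (0.896) and the endosomal GTPase RAB7A (0.889). Running most opposite were COPRS (-0.975) and SCCPDH (-0.938) to S100A8, and the cytochrome P450 CYP1B1 (-0.906) and ILRUN (-0.899) to S100A9. Over the 8 knockdown arrays alone the most similar were RAD9B (0.989) and the Fc receptor gamma chain FCER1G (0.949) for S100A8, and MEX3C (0.965) and EFNA2 (0.937) for S100A9, and the 2 calprotectin genes ranked only 51 (S100A9 to S100A8) and 104 (S100A8 to S100A9). The other tested relatives had r with S100A8 between -0.471 (S100A10) and 0.535 (S100A11) over the 11 arrays.

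S100A12, the third gene of this group known from granulocytes, read 2.22 on shLuc, 2.19 on shRx1, 2.12 on shRx2 and 2.34 on shRx1+shRx2. It read 2.03 on shRx3, 1.94 on shRx1+shRx3, 2.31 on shRx2+shRx3 and 2.14 with all 3 shRNAs. The arrays with and without the RUNX3 shRNA overlapped, and every value was under the level filter. In the limma fit without a level filter the estimates were -0.01 for the RUNX1 shRNA (adjusted p = 0.960), 0.13 for the RUNX2 shRNA (adjusted p = 0.974) and -0.11 for the RUNX3 shRNA (adjusted p = 0.807).

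The relatives S100A4, S100A6, S100A10 and S100A11 had no estimate past the test for any shRNA. S100A4 ranged from 4.62 (shRx2) to 5.16 (shRx1+shRx2) over the knockdown arrays, and its RUNX3 shRNA estimate was -0.14 (95% interval -0.40 to 0.11), or -0.05 without shRx1+shRx2 and -0.25 without shRx2. S100A11 stayed between 7.40 and 7.68, with estimates of -0.01, -0.02 and -0.02 for the RUNX1, RUNX2 and RUNX3 shRNAs. The intervals of S100A11 reached no further than -0.21 and 0.18, so larger additive differences than these were outside them.

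S100A6 read 4.59 on shLuc, 5.02 on shRx2, 4.68 on shRx3 and 4.57 on shRx2+shRx3. With the RUNX1 shRNA it read 4.86 on shRx1, 4.92 on shRx1+shRx2, 5.09 on shRx1+shRx3 and 4.98 with all 3 shRNAs. The shRx2 array reached into the range of the arrays with the RUNX1 shRNA, and the other arrays without it lay below that range. The RUNX1 shRNA estimate of S100A6 was 0.25 (SE 0.113, 95% interval -0.02 to 0.51, limma adjusted p = 0.265). It ran from 0.16 without shRx2+shRx3 to 0.38 without shRx2 (limma adjusted p = 0.574 and 0.0880). S100A10 read 3.998 on shRx1 and 4.32 to 4.46 on the other 7 knockdown arrays, so its RUNX1 shRNA estimate of -0.08 rested on that array, and it was 0.01 without it.

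The compounds were compared at the same dose and time, and 1 pair of compounds was available. S100A8 read 5.49 with DMSO, 5.70 with Chb-M' and 5.46 with Chb-50. S100A9 read 4.79, 4.85 and 4.87 in the same order. The widest spread of the 6 genes tested was that of S100A6, which read 4.88 with DMSO, 5.12 with Chb-M' and 5.52 with Chb-50. S100A4 read 4.99, 5.29 and 5.03, S100A10 5.09, 5.26 and 5.02, and S100A11 7.08, 7.24 and 7.05. In these 3, as in S100A8, Chb-M' gave the highest reading of the 3 arrays.

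With 1 array per condition the spread was borrowed from the knockdown arrays, which is an assumption. In that limma fit S100A6 was 1.56-fold higher with Chb-50 than with DMSO (log2 difference 0.64, 95% interval 0.11 to 1.17, adjusted p = 0.460). Limma called 0 genes for Chb-50 (0%), and 3.94% were higher at an unadjusted p under 0.05, beside 1 of 6 here. S100A6 was the only one of the 6 past 1.5-fold against DMSO with Chb-50, as were 3.37% of all genes, and 0 of 6 were past 2-fold, as were 0.296%. S100A8 differed by -0.03 (95% interval -0.48 to 0.43) and S100A9 by 0.08 (95% interval -0.44 to 0.60).

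With Chb-M' the 6 estimates against DMSO were all positive, as were those of 6686 of the 12147 genes tested. All came from the same pair of arrays, so they are not separate observations. The 6 ran from 0.07 for S100A9 (95% interval -0.46 to 0.59) to 0.30 for S100A4 (95% interval -0.21 to 0.81), with a median of 0.19 beside 0.02 over all genes. S100A8 had 0.21 (95% interval -0.24 to 0.67). Limma called 74 genes (0.609%) for Chb-M' and 0 of these 6, whose adjusted p-values were 0.606 or more. Of all genes 5.46% differed by 1.5-fold and 0.873% by 2-fold, and 0 of the 6 reached either.

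Between Chb-M' and Chb-50 no gene of the 6 passed the test, and limma called 0 of all genes (0%). S100A6 was lower with Chb-M' by a log2 difference of -0.40 (95% interval -0.93 to 0.13, adjusted p = 0.795). The differences of the others were 0.24 for S100A8 (95% interval -0.22 to 0.70), -0.02 for S100A9 (-0.54 to 0.51), 0.26 for S100A4 (-0.25 to 0.77), 0.25 for S100A10 (-0.15 to 0.64) and 0.18 for S100A11 (-0.19 to 0.55). These intervals reach 0.51 or more on at least one side of 0, so they do not show that the compounds acted alike. Of all genes 2.31% differed by 1.5-fold and 0.198% by 2-fold between the compounds, and 0 of the 6 did. S100A12 read 2.78 with DMSO, 2.51 with Chb-M' and 2.10 with Chb-50, all below the level filter. In the limma fit without that filter, Chb-50 minus DMSO was -0.68 for S100A12 (95% interval -1.08 to -0.28, adjusted p = 0.307), Chb-M' minus DMSO -0.27 (-0.67 to 0.13, adjusted p = 0.595) and Chb-M' minus Chb-50 0.41 (0.01 to 0.81, adjusted p = 0.601).

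The knockdown and compound experiments differed in transduction, doxycycline and time, which cannot be told apart. S100A10 was higher on the 3 compound arrays (5.02 to 5.26) than on all 8 knockdown arrays (3.998 to 4.46), as were 7.83% of all genes. S100A11 was lower there (7.05 to 7.24 against 7.40 to 7.68), as were 8.31%. The other 4 tested genes overlapped between the experiments. The mean level over 7 azurophil granule genes was also lower on the compound arrays (7.67 to 7.74) than on the knockdown arrays (7.90 to 8.09). The mean over 5 leukaemia line markers was higher there (7.76 to 7.86 against 7.26 to 7.505). Of these 5, KIT had the widest range over all arrays, 4.21 to 7.14, and MEIS1 the next, 5.84 to 6.50. Whether the higher mean rests on KIT alone was not tested. The part of either list in the S100A10 and S100A11 differences was not tested.

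Genes that work with these proteins were described from lists drawn up by function. Among 7 tested receptors and adaptors of extracellular S100 proteins, 0 were called with any shRNA. The inhibitory receptor LILRB1 (0.44, limma adjusted p = 0.0977) and NPTN (0.39, limma adjusted p = 0.0995) had the highest RUNX1 shRNA estimates of this list. With the RUNX3 shRNA 4 were higher and 3 lower, with a median of 0.06, from LILRB1 at 0.20 to AGER, which encodes RAGE, at -0.04. Of 9 intracellular partners 0 were called. With the RUNX3 shRNA 5 had negative estimates, and annexin ANXA5 lay lowest at -0.15.

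The NADPH oxidase, to which calprotectin delivers arachidonic acid in phagocytes, had 5 tested subunit genes and 0 called. With the RUNX3 shRNA its catalytic subunit CYBB had an estimate of -0.32 and the cytosolic subunit NCF1 0.27 (limma adjusted p = 0.607 and 0.502), and with the RUNX2 shRNA CYBB had 0.57 (limma adjusted p = 0.965). With Chb-M' NCF1 had 1.02 against DMSO, the highest of the list (limma adjusted p = 0.0791), and its near-identical pseudogenes make this reading uncertain. Over the 11 arrays CYBB ranged from 2.70 to 4.44 (median 3.28) and NCF1 from 2.97 to 4.51 (median 3.58). Both medians lay under the level filter of 3.80, so the estimates of these 2 genes rest partly on low readings. Of 11 tested transcription factors known to act on myeloid genes 0 were called, with a RUNX3 shRNA median of -0.01. STAT3 had the highest RUNX3 shRNA estimate (0.19) and KLF4 the lowest (-0.20).

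Only 3 of 13 further S100 genes passed the level filter, S100A2, S100A13 and S100B, and 0 were called. S100B, a glial S100 protein, had a RUNX1 shRNA estimate of -0.33 (SE 0.0845, limma adjusted p = 0.112). S100A2 had a RUNX3 shRNA estimate of -0.22 (limma adjusted p = 0.561), and S100A13 one of 0.11. The median level of S100A2, 3.36, lay under the filter.

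Markers of maturation and of other cells were set beside the RUNX3 shRNA differences of S100A8 and S100A9. Of 9 tested monocyte genes 5 had positive and 4 negative estimates, with a median of 0.03 beside 0.01 over all genes. The mean over all 14 monocyte genes was 4.75 to 5.09 on the arrays without and 4.81 to 5.15 on those with the RUNX3 shRNA. The 3 tested neutrophil genes had estimates of 0.27 for CXCR2, 0.26 for the G-CSF receptor CSF3R and -0.07 for LCN2, and the mean over all 13 was 3.05 to 3.16 without and 3.09 to 3.18 with it. Of the 6 tested azurophil granule genes 5 were positive, beside 6328 of all 12147 genes, and the protease CTSG had -0.26 (limma adjusted p = 0.425). None of these genes was called.

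The mean over 7 T and NK cell genes was 3.05 to 3.09 on the arrays with and 3.12 to 3.26 on those without the RUNX3 shRNA. These ranges did not overlap but lay close together, and most genes in the mean were below the level filter. Of these genes 2 passed the level filter, NKG7, a granule membrane protein, with an estimate of -0.36 (limma adjusted p = 0.513), and CD8A with -0.08, while CD3D, CD3E and CD3G stayed below it on all 11 arrays, at most at 2.60, 2.51 and 2.12. The erythroid and megakaryocyte mean overlapped (3.10 to 3.13 with, 3.04 to 3.39 without), although the integrin subunit ITGA2B had an estimate of -0.38 (limma adjusted p = 0.392). So did the B cell mean (3.28 to 3.68 with, 3.25 to 3.44 without) and the epithelial mean (2.96 to 3.09 with, 2.84 to 3.07 without). The part of these markers in the S100A8 and S100A9 differences was not tested. With the RUNX1 shRNA 8 of 9 tested monocyte genes had positive estimates, beside 6415 of all 12147 genes. Their median was 0.23, beside 0.01 over all genes, with ITGAX (0.96) and CD68 (0.56) highest, and 0 were called. S100A8 and S100A9 had RUNX1 shRNA estimates of 0.01 and -0.08, and how these relate to the monocyte genes was not tested.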

How the data were processed

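Total RNA of 11 MV4-11 samples was hybridised to Affymetrix arrays. The deposited table gives a log2 level for each transcript cluster. RMA, Transcriptome Analysis Console 1.0 and Affymetrix Expression Console 1.3.1 are named, per the submitters' processing notes, without their roles. That the scale is log2 was read from the values (0.485 to 12.7). For the probe annotation no genome build is given in the sources used here. Medians of the tested genes ran from 5.86 to 5.91 by array, and precision is limited by the number of arrays.

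Of 53617 clusters, 23558 had 1 gene symbol, 2155 several and 27904 none listed. Identifiers of 22271 of the first were found in a RefSeq table (GRCh38.p14), which updated 3 symbols. For the 618 genes with several clusters the one with the highest mean was used. Genes reaching 3.80 on any array were tested (12147).

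R 4.3.3 and limma 3.58.1 fitted the shRNA terms to the 8 knockdown arrays, with 3 additive terms, 4 residual and 3.19 prior degrees of freedom. The compound fit used all 11 arrays, again with 4 residual degrees of freedom. All adjusted p-values are Benjamini-Hochberg over all genes tested, with a threshold of 0.05. Interactions were fitted with 3 pairwise terms and 1 residual degree of freedom. Scripts were tested on simulated data. Permutation tests used scipy 1.17.1.

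The 7 genes and all lists were chosen with earlier results of these data known. Named beside them are, per list, the 2 highest and 2 lowest estimates in a comparison and, for S100A8 and S100A9, genes of highest and lowest correlation, leaving out pseudogenes and uncharacterised loci. Further genes are named as defining markers. Alternatives were other level filters, median centring, quantile normalization, the mean of all clusters, a trended robust prior, other models and leaving out each array.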

Additional observations from a re-analysis of the deposited data

Results flagged for a closer look

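In 5 cases both pairs of arrays on one side of a second shRNA moved one way and both pairs on the other side moved the opposite way. These count the S100A4 interaction from each of its sides. They came from a search of all 7 genes over each shRNA beside each other one. Some such patterns are to be met without any interaction, and the share over all genes was not counted. The S100A4 moves of -0.00488 and -0.0124 were small beside its residual SD of 0.182. Each case was also tested as an interaction, and none passed the limma test over all genes.

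With the RUNX1 shRNA, S100A9 differed by 0.28 and 0.0561 without the RUNX3 shRNA and by -0.37 and -0.29 with it (interaction -0.50, limma adjusted p = 0.371). S100A8 differed by 0.0969 and 0.0524 without the RUNX2 shRNA and by -0.0472 and -0.0638 with it (interaction -0.13, limma adjusted p = 1.000). S100A4 differed by -0.14 and -0.00488 without the RUNX2 shRNA and by 0.54 and 0.14 with it (interaction 0.41, limma adjusted p = 1.000).

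With the RUNX2 shRNA, S100A4 differed by -0.34 and -0.0124 without the RUNX1 shRNA and by 0.34 and 0.13 with it, the same interaction seen from the other side. S100A6 differed by 0.43 and 0.0669 without the RUNX3 shRNA and by -0.11 and -0.11 with it (interaction -0.36, limma adjusted p = 0.792).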

How the results depend on the processing

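None of the 6 genes tested was called under any alternative run, in any of the 6 comparisons. The RUNX3 shRNA estimates of S100A8 and S100A9 kept their sign under each alternative that tested them, which for S100A9 leaves out the stricter filter. Leaving out 1 array at a time gave -0.50 to -0.36 for S100A8 and -0.63 to -0.45 for S100A9, and over all alternatives the limma adjusted p ran from 0.217 to 0.774 for S100A8 and from 0.266 to 0.774 for S100A9. Of 756 recomputed values, 23 of the 6 genes tested changed sign, all of estimates between -0.08 and 0.07. S100A12 was judged by size and not by sign, and is not in that count. Its RUNX1 shRNA estimate of -0.0144 became 0.0159 without shLuc, 0.0321 without shRx1+shRx3 and 0.0523 without shRx2+shRx3. The S100A8 estimate for the RUNX1 shRNA was -0.00857 with median centring and -0.00312 with quantile normalization, which also gave 0.0155 for S100A11 with the RUNX1 shRNA and 0.005 for S100A11 between Chb-50 and DMSO. Leaving out 1 array gave ranges across 0 with the RUNX1 shRNA for S100A8 (-0.0658 to 0.0814), S100A10 (-0.13 to 0.00655) and S100A11 (-0.0345 to 0.0675). It did so with the RUNX2 shRNA for S100A4 (-0.0632 to 0.14), S100A6 (-0.0624 to 0.15) and S100A11 (-0.0966 to 0.0441), and with the RUNX3 shRNA for S100A6 (-0.0996 to 0.115) and S100A11 (-0.084 to 0.0566). Counting at 1.5-fold in place of 2-fold moved the Chb-50 count from 0 to 1.

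Over all genes, the count called with the RUNX1 shRNA went from 0 to 817 without shRx1, 391 with interaction terms and 110 under the stricter filter, and that for Chb-M' from 74 to between 0 and 128. No paired analysis was possible because every array carries replicate number 1, which pairs no samples, and the matched pairs of the text share shRNAs and not a replicate number. Interactions could not be refitted without an array, which leaves no residual degrees of freedom, nor a compound comparison without either of the arrays it compares.

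Signal over background is unknown here. Each condition has 1 array, so the p-values rest on the spread between conditions, and the stricter filter keeps only S100A8 and S100A11 of the genes described.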
